A study of Mus musculus with 12 samples.

Results

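The m6A writers and erasers examined here were 10 genes, selected by symbol in the expression table of 25239 genes and in the list of 2643 m6A peaks. The 8 writers were Mettl3, Mettl14, Wtap, Virma, Zc3h13, Rbm15, Rbm15b and Cbll1, and the 2 erasers were Fto and Alkbh5. All 10 genes were found in the expression table, and 1 peak, on Rbm15, was found for them. HT22 is an immortalised line of mouse hippocampal neurons, and mesaconitine (MA) is a toxic alkaloid made by plants of the genus Aconitum. Wild-type HT22 cells received 800 μM MA or 0 μM for 72 h. MA was dissolved in DMSO, and whether control cells received DMSO is not given in the sources used here. From each condition came 3 input libraries and 3 libraries of RNA fragments captured with an anti-m6A antibody (IP), which makes 12 libraries. The labels do not say whether replicates came from separate cultures.

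N6-methyladenosine (m6A) is laid on mRNA in the nucleus by a large methyltransferase complex. METTL3 is its catalytic subunit, and METTL14 is the partner that holds the RNA in place. WTAP, VIRMA, ZC3H13, CBLL1, RBM15 and RBM15B attach to this core and steer it to its targets. FTO and ALKBH5 are oxygenases that remove the methyl group, and in the brain both the writers and the erasers are known for roles in neuronal development. MeRIP-seq, the assay used, compares IP with input reads to find the stretches of RNA that carry m6A.

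The peak on Rbm15 is shown because it is the only stretch of a writer or eraser transcript in the peak list. It covers 100 bases on the minus strand, chr3:107330595-107330694 of mm10. The sequence is printed 5′ to 3′ along the transcript. Capitals mark the only match on this strand to the broad m6A consensus. That consensus is a purine, another purine, AC, and then A, C or T.

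Rbm15 peak: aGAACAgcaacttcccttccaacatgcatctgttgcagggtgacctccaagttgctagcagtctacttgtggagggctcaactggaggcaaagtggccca

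RBM15 is an RNA-binding adaptor of the methyltransferase complex. Its peak lay in exon 1 of 2 of the coding transcript, an exon that runs from 107330215 to 107333673 on chromosome 3. The midpoint of the peak fell inside the coding sequence, 451 bases before the stop codon and 84.3% of the way along a coding sequence of 2889 bases. The match GAACA began at base 2 of the peak. The strict core GGAC was found 0 times on the transcribed strand and 0 times on the other strand. The letters GGACT were also absent from the transcribed strand. Of all 176 peaks of 100 bases, 134 (76.1%) held the broad consensus on the transcribed strand, 55 (31.3%) held GGAC and 19 (10.8%) held GGACT, which is itself a case of GGAC. The broad consensus also occurred 1 time on the other strand of the Rbm15 peak. Its 1 match on the transcribed strand therefore does not by itself mark an m6A site. The peak held the common motif and lacked the less frequent ones. The broad consensus was searched after the data had been seen.

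Read counts were deposited per peak with the 3 libraries of a group pooled, so no spread between replicates can be given and no test between conditions was made. Intervals are 95% Wald intervals and cover counting error only. At the Rbm15 peak, the pooled libraries held 264 control input reads, 220 control IP reads, 194 MA input reads and 290 MA IP reads. Control IP reads were fewer than control input reads, and MA IP reads were more than MA input reads. With 968 reads in all, the peak was better covered than 89.9% of the 2643 peaks. The list of peaks comes from the authors' comparison of conditions and holds fewer peaks than the study describes. Each percentile or share of all peaks therefore refers to this list, not to all m6A sites.

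**Figure D1:**
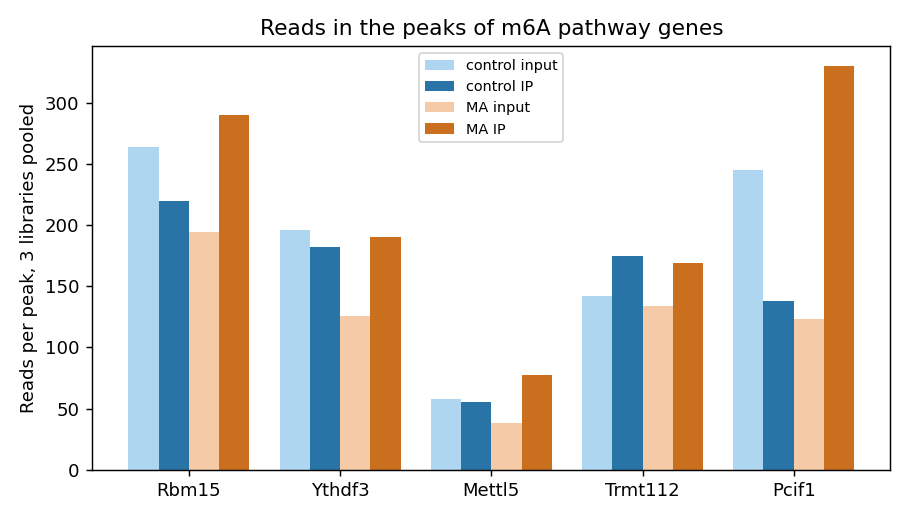
Reads per peak, with 3 libraries pooled in each bar, at the peaks of Rbm15 and of 4 other m6A pathway genes; the lighter bar of each colour is input, the darker bar is IP, blue is control and orange is MA. Rbm15 ran from 194 MA input reads to 290 MA IP reads, and the bars have no error because the replicates were pooled.

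The files used hold no library totals, so ratios were read against the median of all peaks. Centring removes any shift that all peaks share, and for such a shift sequencing depth and a general difference in m6A signal cannot be told apart. In control cells the log2 ratio of IP to input at the Rbm15 peak lay under that median (-0.20, interval -0.46 to 0.06), at percentile 33.8 of the peaks. In MA-treated cells it was also under the median (-0.30, interval -0.56 to -0.04), at percentile 28.6. Scaled by the summed reads of all peaks instead, the ratios were -0.15 in control and -0.16 in MA-treated cells, and the MA interval of -0.43 to 0.10 then held 0. With both conditions joined, the log2 ratio was 0.16, against a median of 0.48 over all peaks and a range of 0.02 to 1.92. Of all peaks, 129 (4.88%) had a lower joined ratio. The median ratio before centring was -0.06 in control and 0.88 in MA-treated cells, so the joined rank also follows how the reads of a peak divide between the conditions.

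The question here was whether the m6A signal on this writer's own mRNA differed with MA, and the pooled reads can only describe it. The IP to input ratio of Rbm15 changed by -0.07 on the log2 scale from control to MA, relative to the median change (interval -0.44 to 0.30). That is a ratio of 0.954, at percentile 46.7 of all peaks. The Rbm15 peak did not pass 1.5-fold in either direction, a threshold passed by 53.8% of all peaks. With at least 10 reads in each column this share was 51.8%. Neither share was matched for depth, and Rbm15 held more reads than 89.9% of the peaks. Before centring the change was 0.84 (interval 0.48 to 1.21), and the median over all peaks was 0.91, so the typical peak had a slightly larger uncentred change than Rbm15. The interval ran from 0.739 to 1.23 as a ratio, and the counts do not settle where within it the change lies. It leaves out the spread between replicates.

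Input reads do not depend on the antibody and follow the RNA level at the peak. Relative to the median of all peaks, MA input reads at Rbm15 differed from control input reads by 0.03 on the log2 scale (interval -0.24 to 0.30), at percentile 52.6. The 1.5-fold threshold, passed by 27.0% of all peaks for input reads, was not passed, and that share was not matched for depth. These reads cover 100 bases of 1 exon and are not a measure of the whole transcript. In bulk samples, fewer cells that hold this RNA and less of it per cell cannot be told apart.

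**Figure D2:**
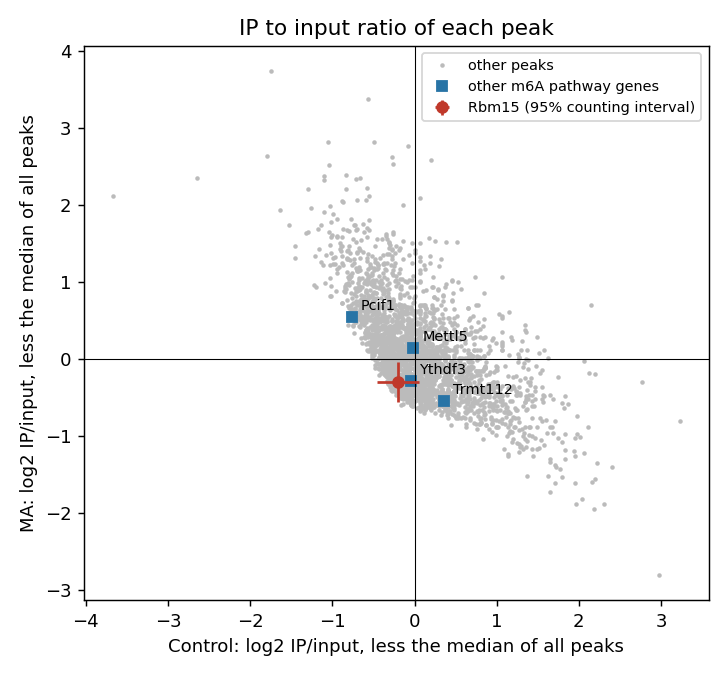
Log2 IP to input ratio of each of 2643 peaks, less the median of all peaks, in control cells (x axis) and in MA-treated cells (y axis); the red point is Rbm15 with 95% counting intervals and blue squares are other m6A pathway genes. Rbm15 sits at -0.20 and -0.30, under the median in both conditions. The joined log2 ratio of every peak in the list is 0.02 or more, and no point lies far under the median in both conditions.

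The other 9 writers and erasers had no peak, either under their symbol or within their annotated loci, which together hold 1 peak, that of Rbm15. Of all 16178 genes with a base mean above 0, 13.4% had a peak. Between the lowest and the highest base mean of the 10 genes this share was 19.5%, from 1429 of 7340 genes, against 1 of 10 here. The study describes more peaks than this list holds, so these shares describe the list alone, and a gene without a peak in it is not shown to lack m6A. Genes of intermediate level had peaks most often, with 20.3% at base means from 1000 to 3000 and 8.14% at 10000 and over.

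**Figure D3:**
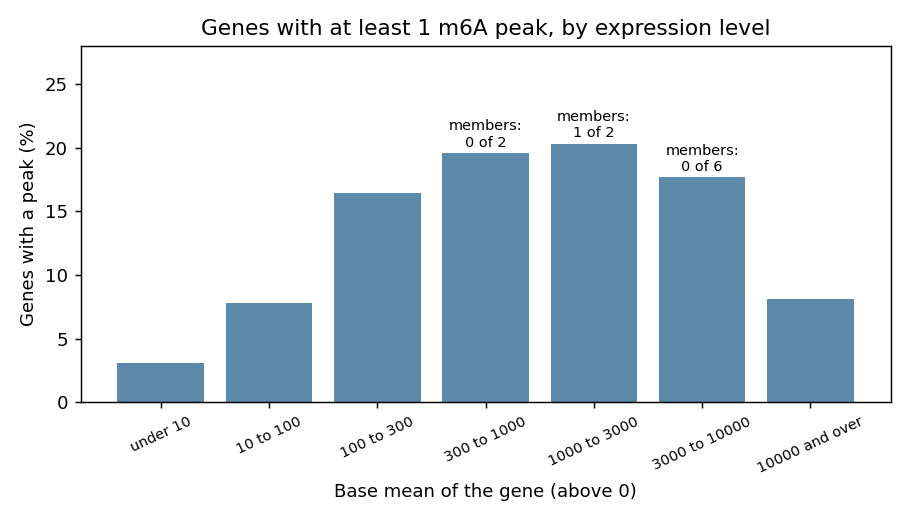
Share of genes with at least 1 m6A peak (y axis, %) by base mean (x axis, 7 ranges). The labels give how many of the 10 writers and erasers lie in a range and how many of those have a peak; the share is 19.6%, 20.3% and 17.7% in the 3 ranges that hold them.

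The expression table gives each gene 1 base mean, the normalised read count averaged over the libraries compared. It therefore describes MA-treated and control cells together and has no error here, and levels of the 10 genes are set against each other as base mean per kilobase of all annotated exons. Without division by length, 9 of the 10 genes lay above the median base mean of 528 of all genes above 0, and the median of the 10 lay at percentile 80.4. Markers of the named cell type were checked in the same column. Of 8 neuronal markers, Map2, Snap25 and Nefl were listed at 0, only Tubb3 (473) and Dlg4 (4073) reached a base mean of 10, and the list summed to 4553. Of 4 markers for each glial type, 1 for astrocytes, 1 for oligodendrocytes and 2 for microglia reached a base mean of 10. All 4 fibroblast markers were detected, from 145 for Dcn to 134804 for Col3a1.

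For the catalytic pair, Mettl3 had a base mean of 616 and Mettl14 one of 3032. Mettl3 lies on chromosome 14 (start 52294841, end 52305128) and Mettl14 on chromosome 3 (start 123368297, end 123386108), both on the minus strand of GRCm38. Per kilobase of exons, Mettl3 was at 121 and Mettl14 at 409, a ratio of 3.37. The ratio depended on the length used and was 1.39 per kilobase of the longest coding transcript and 1.71 per kilobase of the mean transcript. Mettl14 was the higher under all 3 lengths. The annotation gives Mettl3 15 transcripts, with 5076 exon bases in all and 2025 in the longest coding transcript. Exons of Tox4 on the other strand cover 18.4% of the Mettl3 exon bases, and whether counting used strand is not given in the sources used here.

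Among the scaffold proteins, WTAP anchors the core in nuclear speckles, VIRMA helps to select sites near the end of the coding sequence, and ZC3H13 keeps the complex in the nucleus. Zc3h13 (chromosome 14, start 75284373, end 75344426, plus strand) had a base mean of 5768, or 918 per kilobase, the highest of the writers by exon bases. Virma (chromosome 4, start 11485958, end 11550684, plus strand) had a base mean of 4810, or 674 per kilobase. Wtap (chromosome 17, start 12966796, end 12994169, minus strand) had a base mean of 2398, or 384 per kilobase. Under the other lengths Wtap rose to 752 and 1742 per kilobase, and by mean transcript length it stood above Zc3h13, at 1702. Stretches of 50 bases from the longest coding transcript of Wtap also occurred in transcripts of other genes in 6 of 63 cases (9.52%), so its level is less certain. For each of the other 9 genes this count was 0. Cbll1, which encodes the E3 ligase-like subunit HAKAI (chromosome 12, start 31484829, end 31499616, minus strand), had a base mean of 522, or 130 per kilobase. Exons of Gm29542 on the other strand cover 17.6% of its exon bases.

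RBM15 and RBM15B are paralogous adaptors that bind uridine-rich RNA and bring the complex to nearby sites. Rbm15 (chromosome 3, start 107325421, end 107333673, minus strand) had a base mean of 1679 and Rbm15b (chromosome 9, start 106880918, end 106887428, minus strand) one of 3029. Per kilobase they stood at 226 and 465, and Rbm15b was 2.06 times as high. This ratio was 1.2 by the longest coding transcript and 2.59 by the mean transcript, so Rbm15b was higher each time. The paralog with the higher level had no peak.

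Of the erasers, Alkbh5 (chromosome 11, start 60536381, end 60558512, plus strand) had a base mean of 9731. Its level per kilobase was 1625, and it stood first of the 10 genes under all 3 lengths. Fto (chromosome 8, start 91313525, end 91668439, plus strand) had a base mean of 3416 and 262 per kilobase of exons, or 726 per kilobase of its longest coding transcript. Alkbh5 was 6.20 times as high as Fto by exon bases, 2.34 times by the longest coding transcript and 2.41 times by the mean transcript. Against the catalytic writer Mettl3, Alkbh5 was 13.4 times as high by exon bases and 5.59 and 5.23 times by the other lengths.

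**Figure D4:**
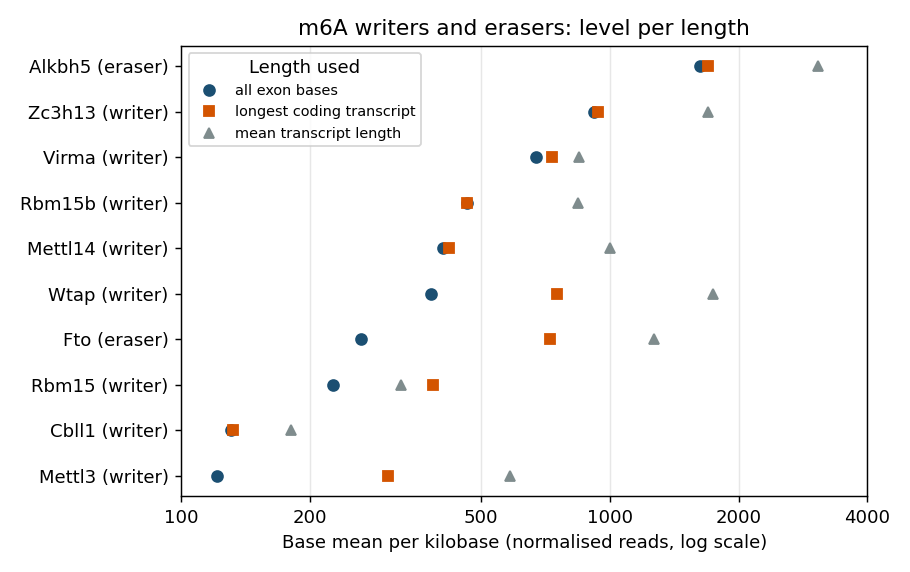
Base mean per kilobase (x axis, log scale) of the 10 m6A writers and erasers (y axis), with 3 marks per gene for the 3 lengths used. Alkbh5 is at the right under each length, from 1625 to 3063, and Cbll1 or Mettl3 is at the left, from 121 for Mettl3 by exon bases.

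Between some neighbours the order depended on the length. Of the 45 pairs among the 10 genes, 34 kept the same order under all 3 lengths. Mettl3, Rbm15 and Cbll1 filled the last 3 places under each length. Wtap ranged from place 2 to place 6, and Fto from place 4 to place 7. Because each gene has a single value over all libraries, whether neighbours differ beyond the spread between libraries was not tested.

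The study lists 11 other genes as m6A readers, a class named for binding m6A. Their base means per kilobase ran from 174 for Ythdc2 to 5266 for Hnrnpa2b1, with a median of 621. The median of the 8 writers was 396. The 5 genes of other RNA methyltransferases, counting Trmt112, which encodes the partner of METTL5, had a median of 135. The 3 genes of S-adenosylmethionine supply (the methyl donor) had 484.7, led by Mat2a at 1181. All these levels are per kilobase of exons, and the order of the lists under the other lengths was not examined. A peak was listed for 1 reader, Ythdf3, and for 3 of the 5 genes counted with the other methyltransferases, Mettl5, Trmt112 and Pcif1. None was listed for the methyl donor genes. Of all genes with a base mean above 0, 13.4% had a peak. In the ranges that hold the 5 genes the share was 19.6% (300 to 1000) and 20.3% (1000 to 3000). The lists are small, and whether they differ in peaks was not tested.

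YTHDF3 is a cytoplasmic reader, and its peak lay on chromosome 3 from 16183165 to 16183339, with its midpoint in the 5′UTR. The peak began before the annotated start of Ythdf3, at 16183212. Relative to the median of all peaks, its IP to input ratio changed by -0.21 from control to MA (interval -0.65 to 0.22). METTL5 methylates ribosomal RNA together with TRMT112, and the change at Mettl5 was 0.18 (interval -0.59 to 0.96). At Trmt112 it was -0.88 (interval -1.33 to -0.42), with reads of 142 (input) and 175 (IP) in control cells and 134 (input) and 169 (IP) after MA. PCIF1 methylates the adenosine next to the mRNA cap. At its peak the change was 1.34 (interval 0.92 to 1.76), with reads of 245, 138, 123 and 330 in the same order. The midpoint of the Pcif1 peak was not on the longest coding transcript. Exons of Zfp335 on the other strand cover 16.9% of the Pcif1 exon bases. For Trmt112, exons of Esrra and Prdx5 on the other strand cover 39.1%. For Mettl5, exons of other genes (Gm13625 and Ssb) cover 2.05% on the same strand and 6.93% on the other. Whether these peaks lie in the shared bases was not examined. After centring, Trmt112 and Pcif1 passed 1.5-fold in opposite directions, beside the 53.8% of all peaks that passed it. Before centring their changes were 0.03 and 2.25, so the lower value of Trmt112 exists only relative to the median change of 0.91. The value of Rbm15 was nearer to the median change than those of the 4. Its interval overlapped those of Ythdf3 and Mettl5 widely and that of Trmt112 narrowly, and lay wholly below that of Pcif1. The intervals cover counting error only, and whether these genes differ from each other was not tested.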

How the data were processed

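HT22 libraries were made with a stranded kit that carries molecular identifiers, per the labels. The steps the authors name are trimming by fastp, alignment by HISAT2 (genome mm10), quantification by StringTie and comparison of conditions by DESeq2. The base mean is a signal deposited by the authors, the mean over libraries of the count divided by a size factor, and it was taken to cover the input libraries. Peaks were called with exomePeak2 by the authors, who deposited counts per peak pooled over the 3 replicates of a group. Versions are not given in the sources used here. The fold changes, ratios, standard errors and p-values in both tables are the authors' own comparisons and were not used, so the change of each gene's mRNA with MA was not analysed here. The number of unused columns with values of single libraries is 0.

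Analyses used Python 3.11.15 with pandas 2.3.3, numpy 2.4.6, pysam 0.24.0, scipy 1.17.1 and matplotlib 3.10.9. Ratios of pooled counts were centred on their median over 2643 peaks, without a pseudocount, and a peak past 1.5-fold was counted. All 10 symbols matched GENCODE M21 (GRCm38, the assembly of mm10), and sequence came from the GRCm38 genome of RefSeq. All 10 genes and all pathway genes with a peak were named. Genes, lists and alternatives were chosen with earlier results of these data known. Alternatives were other lengths, scalings, thresholds and filters. Reads in all peaks numbered 288659 for control input, 267002 for control IP, 214778 for MA input and 359889 for MA IP.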

Additional observations from a re-analysis of the deposited data

How the results depend on the processing

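No paired analysis was possible because the replicates are pooled in every column used, and for the same reason no replicate could be left out. Without centring, the change at the Rbm15 peak was 0.84 for the IP to input ratio and -0.44 for input reads. These values hold any difference in depth between the libraries, which was not measured here. Scaling by summed reads, a minimum of 10 reads in each column and 0.5 added to each count each left the change of ratio and the input difference at Rbm15 inside the intervals given. For the IP to input ratio in MA-treated cells, -0.30 became -0.16 with summed reads (interval -0.43 to 0.10) and -0.26 with the minimum of 10 reads (interval -0.52 to 0.00), so 0 was no longer outside. The share of all peaks past the threshold was 31.4% for the change of ratio at 2-fold, and for input reads 58.9% at 1.2-fold and 9.84% at 2-fold. The median level of the 10 genes was 396 per kilobase of exons, 595 by the longest coding transcript and 924 by the mean transcript. For single genes, 11 of 20 levels under the other lengths moved by more than 1.5 times. The broad consensus, added after the data had been seen, gave 1 match on each strand of the Rbm15 peak where GGAC gave 0.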
